A study of Mus musculus with 12 samples.

Results

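Transcripts of skeletal muscle were followed in 12 RNA sequencing libraries of mouse fat. The 33 genes described were fixed by name, as structural, calcium-handling and metabolic genes of skeletal muscle fibres, and were found by symbol among 47729 genes in each table. Of the 33, 14 form a list of fast fibre genes, 6 form a list of slow fibre genes and 13 belong to neither. The libraries came from interscapular brown fat (BAT), retroperitoneal white fat (RWAT), inguinal white fat (IWAT) and epididymal white fat (EWAT), with 3 libraries per depot. All of them were from wild-type male C57BL/6J mice, 6 to 10 weeks of age, on a high-fat diet, and all depots were labelled as surgically denervated, so an effect of denervation was not tested. Whether the replicates of a depot came from separate animals is not given in the labels, so the spread behind each p-value is that between libraries and may be technical.

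Skeletal muscle contracts when calcium released from the sarcoplasmic reticulum binds troponin on the thin filament and lets myosin heads pull on actin. Most sarcomere proteins exist as paralogs, and a fibre's set of them goes with its type: slow oxidative fibres use Myh7, Myl2 and the slow troponins, while fast fibres use Myh2, Myh1 or Myh4, Mylpf and the fast troponins, with Myh4 in the fastest, most glycolytic ones. Most of these genes are known from muscle fibres, although some, such as Mb and Ckmt2, are also known in thermogenic adipocytes. In bulk tissue, fewer cells of a type and less RNA per cell cannot be told apart.

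The libraries held 12933516 to 21106554 expected counts, with RWAT 3 the shallowest, so 3 counts equalled 0.142 to 0.232 CPM (counts scaled to library size). Ucp1, the uncoupling protein that defines brown adipocytes, was at 792, 0.21 and 1.02 TPM (abundance scaled by transcript length and library size) in BAT 1, 2 and 3, so that 1 of 3 libraries labelled as brown fat carried this marker at a high level. Zic1, a patterning gene of interscapular fat, was at 2.54, 8.97 and 6.88 TPM in the BAT libraries, against at most 0.59 TPM in any white library. EWAT 1 had the lowest summed level of 8 adipocyte genes (1578 TPM) and the highest of 8 smooth muscle genes (1211 TPM). The adipocyte sum was 4152 TPM or more in each of the other libraries.

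RWAT 3, RWAT 1 and BAT 1 carried most of the muscle transcripts. The summed level of the 33 genes was 198.0, 48.4 and 53.9 TPM in BAT 1, 2 and 3. It was 829.6, 53.0 and 3335 TPM in RWAT 1, 2 and 3, against 74.5, 94.6 and 85.1 TPM in IWAT and 30.0, 26.4 and 35.7 TPM in EWAT. RWAT 3 and RWAT 1 stood above all other libraries, BAT 1 came next, and RWAT 2 lay among the low ones, so that the RWAT libraries overlapped those of BAT and IWAT and lay above those of EWAT. As a share of all expected counts, the genes took 0.740% in RWAT 3 (95% exact interval 0.735 to 0.744%), 0.124% in RWAT 1 (0.123 to 0.126%) and 0.0423% in BAT 1 (0.0414 to 0.0432%), against 0.00298 to 0.00926% in the other 9 libraries. These intervals cover counting error only. RWAT 3 was the highest library for 28 of the 33 genes, and RWAT 1 the second highest for 24. BAT 1 came next after the top pair of libraries for 19.

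**Figure D1:**
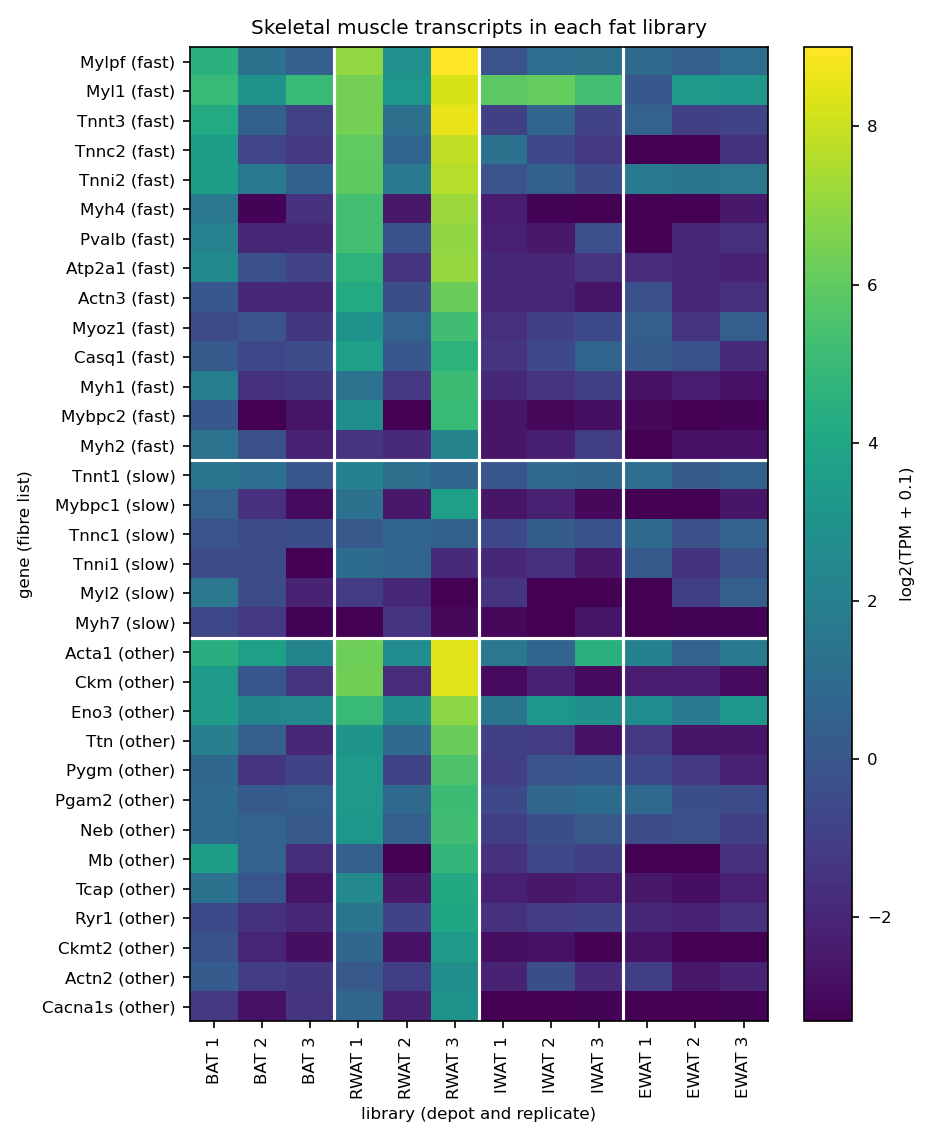
Level of the 33 skeletal muscle genes (rows, marked as fast, slow or neither) in the 12 libraries (columns), as log2(TPM + 0.1). The bright columns are RWAT 3 and RWAT 1, BAT 1 is intermediate, the slow rows other than Mybpc1 stay dark, and Myl1 is the 1 row that is bright in all 3 IWAT libraries.

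Muscle creatine kinase, Ckm, which buffers ATP in fibres, showed the pattern most plainly. Its level was 11.1, 0.88 and 0.26 TPM in BAT 1, 2 and 3 and 80.2, 0.20 and 342 TPM in RWAT 1, 2 and 3. IWAT had 0.03, 0.12 and 0.03 TPM and EWAT 0.09, 0.10 and 0.03 TPM, in the order of replicates 1 to 3, which is kept below. RWAT 3 and RWAT 1 thus lay far above BAT 1, BAT 1 lay far above the rest, and RWAT 2 was close to the IWAT and EWAT libraries. The mean was 140.7 ± 178.6 TPM in RWAT, against 0.060 ± 0.052 TPM in IWAT and 0.073 ± 0.038 TPM in EWAT (SD, n = 3 each), so the SD of RWAT exceeded its own mean. Behind the IWAT values lie 3 reads in all, and behind the EWAT values 8.

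Skeletal alpha-actin, Acta1, the main actin of the thin filament, was at 20.9, 12.7 and 4.56 TPM in BAT, 77.8, 6.25 and 349 TPM in RWAT, 2.85, 1.55 and 22.8 TPM in IWAT and 4.17, 1.41 and 3.27 TPM in EWAT. The 2 high RWAT libraries again led, but IWAT 3 and BAT 2 were also above 10 TPM while their Ckm stayed under 1 TPM. Mylpf, the fast regulatory light chain of myosin, was at 23.6, 2.36 and 1.28 TPM in BAT, 130.1, 7.34 and 514 TPM in RWAT, 0.78, 2.03 and 2.25 TPM in IWAT and 1.85, 1.20 and 2.10 TPM in EWAT. With 514 TPM in RWAT 3 it had the highest level of the 33 genes in any library, and all 3 RWAT libraries lay above all 6 libraries of IWAT and EWAT.

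The fast troponins bind calcium (Tnnc2), inhibit the actin–myosin contact (Tnni2) and anchor the complex to tropomyosin (Tnnt3). Tnnc2 was at 11.4, 0.49 and 0.32 TPM in BAT, 63.4, 1.53 and 229 TPM in RWAT, 2.33, 0.56 and 0.31 TPM in IWAT and 0, 0 and 0.25 TPM in EWAT. Tnni2 was at 11.7, 3.05 and 1.34 TPM in BAT, 60.6, 3.21 and 199 TPM in RWAT, 0.79, 1.34 and 0.66 TPM in IWAT and 3.21, 2.55 and 2.88 TPM in EWAT. Tnnt3 was at 18.3, 1.31 and 0.44 TPM in BAT, 86.8, 2.21 and 383 TPM in RWAT, 0.41, 1.52 and 0.47 TPM in IWAT and 1.37, 0.41 and 0.45 TPM in EWAT. All 3 subunits were highest in RWAT 3, next in RWAT 1 and then in BAT 1, and each exceeded 11 TPM in BAT 1. Tnni2 kept 2.55 to 3.21 TPM in EWAT, above its 0.66 to 1.34 TPM in IWAT, with no overlap.

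The slow troponins and Myl2 did not follow the order RWAT 3, RWAT 1, BAT 1, although Tnnt1 and Tnni1 were highest in RWAT 1. Tnnc1, the slow and cardiac troponin C, was at 0.82, 0.64 and 0.67 TPM in BAT, 1.00, 1.55 and 1.3 TPM in RWAT, 0.56, 1.14 and 0.76 TPM in IWAT and 1.75, 0.72 and 1.36 TPM in EWAT. All its values lay between 0.56 and 1.75 TPM, with the highest in EWAT 1. Tnnt1, the slow troponin T, was at 2.70, 2.19 and 0.89 TPM in BAT, 4.20, 2.25 and 1.47 TPM in RWAT, 0.89, 1.77 and 1.61 TPM in IWAT and 2.14, 1.07 and 1.33 TPM in EWAT. Tnni1, the slow troponin I, was at 0.63, 0.64 and 0 TPM in BAT, 1.98, 1.53 and 0.19 TPM in RWAT, 0.16, 0.23 and 0.08 TPM in IWAT and 1.03, 0.25 and 0.72 TPM in EWAT. RWAT 3, the library with the most muscle transcripts, had less Tnni1 and Tnnt1 than RWAT 1 and RWAT 2. Myl2, the slow regulatory light chain, was at 2.87, 0.62 and 0.13 TPM in BAT, 0.34, 0.17 and 0 TPM in RWAT, 0.26, 0 and 0 TPM in IWAT and 0, 0.39 and 1.23 TPM in EWAT. Its highest library was BAT 1, and it was listed at 0 in RWAT 3. Reads from opposite strands could not be told apart here, since the counting is not stated to use strand: Tnnc1 overlaps Nisch on the opposite strand and Tnnc2 overlaps Ube2c, and 19 of the 33 genes overlap some gene on the opposite strand in GENCODE M21.

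Summed per library, the 14 fast genes reached 119.9, 18.3 and 37.9 TPM in BAT 1, 2 and 3, 580.1, 27.6 and 2233 TPM in RWAT, 64.6, 75.8 and 47.8 TPM in IWAT and 10.6, 17.0 and 16.9 TPM in EWAT. The 6 slow genes summed to 1.73 to 15.2 TPM over the 12 libraries, so their range was narrow beside that of the fast genes. The ratio of the fast sum to the slow sum was 146.7 in RWAT 3, 59.0 in RWAT 1, 13.4 in BAT 1 and 21.9 in BAT 3. In RWAT 3 Mybpc1 made up 12.2 of the 15.2 TPM of the slow sum: without Mybpc1 and Tnnc1 the ratio there was 1329, and from expected counts it was 91.1. Ratios of 18.88 to 32.95 in IWAT, and that of BAT 3, rested on Myl1: without it the IWAT ratios were 2.20 to 3.01 and BAT 3 was at 3.37, against 1.66 to 2.37 in EWAT. Without Myl1, RWAT 3 was at 126.7, RWAT 1 at 50.2, BAT 1 at 9.84 and RWAT 2 at 3.23. Of the slow list, Mybpc1, a myosin-binding protein C that fast fibres also carry, was the member that was high in the same libraries as the fast genes.

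**Figure D2:**
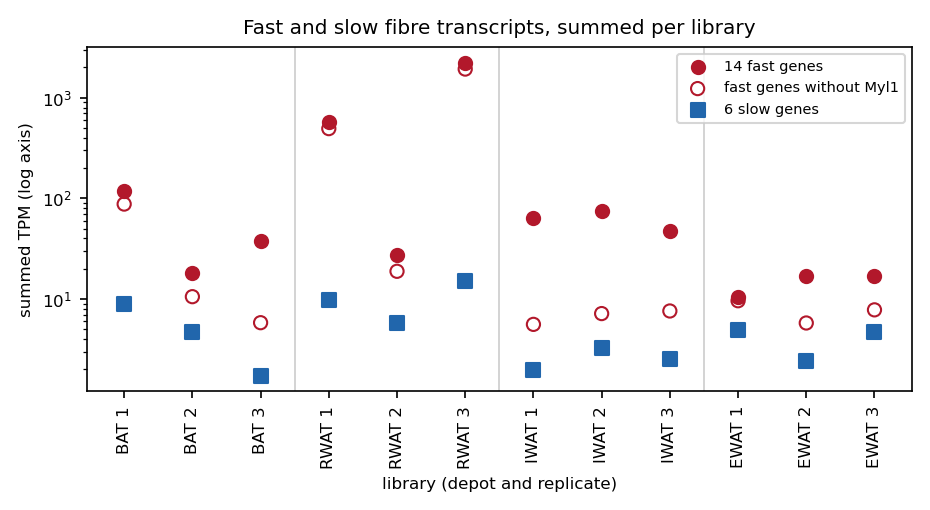
Summed TPM of the 14 fast genes (filled circles), of the fast genes without Myl1 (open circles) and of the 6 slow genes (squares) in each library, on a log axis. Fast and slow sums lie furthest apart in RWAT 3 (2233 and 15.2 TPM) and RWAT 1 (580.1 and 9.83 TPM), and leaving out Myl1 lowers the IWAT sums to 5.61 to 7.62 TPM.

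Myosin-binding protein C crosslinks the thick filament. Its fast form, Mybpc2, was at 0.91, 0 and 0.06 TPM in BAT, 7.05, 0 and 31.3 TPM in RWAT, 0.06, 0.02 and 0.04 TPM in IWAT and 0.02, 0 and 0.01 TPM in EWAT. Its slow form, Mybpc1, was at 1.37, 0.24 and 0.03 TPM in BAT, 2.31, 0.08 and 12.2 TPM in RWAT, 0.07, 0.12 and 0.02 TPM in IWAT and 0, 0 and 0.07 TPM in EWAT. Both forms had their 2 highest libraries in RWAT 3 and RWAT 1. The fast form exceeded the slow form there, with ratios of 2.56 in RWAT 3 and 3.05 in RWAT 1, whereas in BAT 1 the ratio was 0.664. The other fast to slow pairs were further apart in RWAT 3, at 176 for Tnnc2 over Tnnc1 and 261 for Tnnt3 over Tnnt1.

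The motor itself, the myosin heavy chain, told the libraries apart in kind as well as in amount. Myh4, the heavy chain of type IIB fibres, was at 2.97, 0.01 and 0.24 TPM in BAT, 39.5, 0.08 and 139.9 TPM in RWAT, 0.10, 0.01 and 0 TPM in IWAT and 0, 0 and 0.08 TPM in EWAT. Myh1, that of type IIX fibres, was at 3.84, 0.24 and 0.30 TPM in BAT, 2.5, 0.31 and 34.4 TPM in RWAT, 0.17, 0.26 and 0.41 TPM in IWAT and 0.05, 0.10 and 0.05 TPM in EWAT. Myh2, that of type IIA fibres, was at 2.48, 0.71 and 0.12 TPM in BAT, 0.26, 0.19 and 4.47 TPM in RWAT, 0.07, 0.11 and 0.39 TPM in IWAT and 0, 0.05 and 0.05 TPM in EWAT. BAT 1 had more Myh1 and Myh2 than RWAT 1, although RWAT 1 had far more Myh4. Myh7, the slow heavy chain, was at 0.54, 0.33 and 0.01 TPM in BAT, 0, 0.26 and 0.02 TPM in RWAT, 0.02, 0 and 0.06 TPM in IWAT and 0, 0.01 and 0.01 TPM in EWAT, with its highest level in BAT 1.

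Of the counts of these 4 heavy chains, Myh4 took 30.2% in BAT 1 (95% exact interval 27.7 to 32.8%, 1305 counts), 93.6% in RWAT 1 (92.9 to 94.3%, 4385 counts) and 82.2% in RWAT 3 (81.6 to 82.9%, 14257 counts). Myh1 took 39.1% in BAT 1 (36.4 to 41.8%), 5.75% in RWAT 1 (5.08 to 6.48%) and 15.1% in RWAT 3 (14.5 to 15.7%). The shares of Myh2 were 25.1% in BAT 1, 0.616% in RWAT 1 and 2.64% in RWAT 3. Myh7 made up 5.67% in BAT 1 (4.48 to 7.07%), while RWAT 3 had 1 Myh7 count and RWAT 1 had 0 of 4385, with an exact upper limit of 0.0841%. These intervals, too, cover counting error only, for 1 library each, and leave out the error of assigning reads to a gene. BAT 2, with 118 counts, was mostly Myh2 (55.1%, 45.7 to 64.3%) and Myh7 (26.3%, 18.6 to 35.2%) and had 1 Myh4 count. The remaining libraries had 4 to 76 heavy chain counts each, too few to rank most genes. These near-identical genes share reads, and the deposited posterior SD of the count reached 2.07% of the count for Myh1, 1.94% for Myh2 and 1.04% for Myh4 in libraries with at least 100 counts. Over the 28 members that had a library with so many counts, 24 had a posterior SD that never passed 1% of the count.

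**Figure D3:**
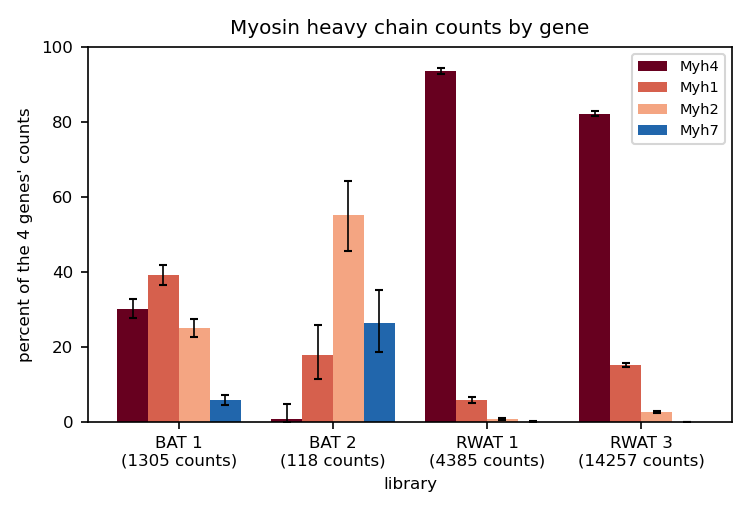
Percent of the counts of Myh4, Myh1, Myh2 and Myh7 taken by each gene (bars), with exact 95% intervals (lines), in the 4 libraries with at least 100 such counts. Myh4 takes 93.6% in RWAT 1 and 82.2% in RWAT 3, whereas in BAT 1 Myh1 (39.1%), Myh4 (30.2%) and Myh2 (25.1%) share the counts.

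The 3 fast heavy chain genes lie in a row on 1 strand of chromosome 11 (GRCm38, GENCODE M21), with Myh2 at chr11:67171027-67197517, Myh1 at chr11:67200052-67224575 and Myh4 at chr11:67238029-67260446. Of the 33 genes, 8 lie on chromosome 7, among them Ckm, Mylpf, Atp2a1, Tnni2 and Tnnt3. The 250 bases before the start of 7 genes are shown, because 6 of them carried much of the signal in RWAT 3 or differed in share between libraries, and the seventh, Myl1, had another pattern over the depots. Sequences are from RefSeq on GRCm38.p6, 5′ to 3′ on the gene's strand. Capitals mark matches to TATAAA (either strand), to the E-boxes CAGCTG (its own reverse complement) and CACCTG (either strand), to the MEF2 box and to the CArG box. On the reverse strand a TATAAA match can lie inside a MEF2 box.
Ckm chr7:19410844-19411093, plus strand: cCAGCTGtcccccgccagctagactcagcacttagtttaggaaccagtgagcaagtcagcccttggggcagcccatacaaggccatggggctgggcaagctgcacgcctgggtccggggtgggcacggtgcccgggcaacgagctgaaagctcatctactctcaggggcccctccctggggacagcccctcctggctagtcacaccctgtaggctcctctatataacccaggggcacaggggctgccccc
Mylpf chr7:127211358-127211607, plus strand: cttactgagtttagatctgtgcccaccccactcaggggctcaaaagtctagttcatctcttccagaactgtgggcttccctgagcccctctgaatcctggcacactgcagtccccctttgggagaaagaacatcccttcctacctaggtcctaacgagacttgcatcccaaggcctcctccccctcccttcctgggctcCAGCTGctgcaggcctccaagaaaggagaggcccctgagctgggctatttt
Acta1 chr8:123894776-123895025, minus strand: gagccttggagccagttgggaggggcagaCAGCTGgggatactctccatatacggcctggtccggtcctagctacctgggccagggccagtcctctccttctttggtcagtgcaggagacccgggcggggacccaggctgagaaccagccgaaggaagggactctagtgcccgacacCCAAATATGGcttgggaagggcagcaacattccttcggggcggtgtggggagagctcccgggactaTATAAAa
Myh4 chr11:67237562-67237811, plus strand: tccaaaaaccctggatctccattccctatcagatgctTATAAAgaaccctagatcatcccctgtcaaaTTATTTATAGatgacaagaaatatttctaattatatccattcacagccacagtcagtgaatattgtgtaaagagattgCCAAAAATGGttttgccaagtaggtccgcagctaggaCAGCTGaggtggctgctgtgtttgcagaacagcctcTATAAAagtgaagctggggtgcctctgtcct
Myh1 chr11:67199852-67200101, plus strand: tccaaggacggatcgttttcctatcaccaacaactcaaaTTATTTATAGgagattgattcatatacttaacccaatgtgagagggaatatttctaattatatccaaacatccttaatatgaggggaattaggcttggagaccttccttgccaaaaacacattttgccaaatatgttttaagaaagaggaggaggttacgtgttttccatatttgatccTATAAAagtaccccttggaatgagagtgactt
Myh2 chr11:67170777-67171026, plus strand: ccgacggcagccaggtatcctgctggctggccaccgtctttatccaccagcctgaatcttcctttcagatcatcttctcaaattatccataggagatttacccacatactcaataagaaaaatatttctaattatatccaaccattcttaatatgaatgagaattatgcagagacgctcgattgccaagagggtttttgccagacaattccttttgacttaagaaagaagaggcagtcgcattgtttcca
Myl1 chr1:66945057-66945306, minus strand: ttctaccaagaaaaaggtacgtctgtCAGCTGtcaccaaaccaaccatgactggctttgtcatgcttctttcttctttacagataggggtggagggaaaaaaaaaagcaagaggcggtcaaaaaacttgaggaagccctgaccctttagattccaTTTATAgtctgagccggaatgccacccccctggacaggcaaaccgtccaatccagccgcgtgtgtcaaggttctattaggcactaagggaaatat

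Myh4 and Myh1 each had TATAAA on the gene's own strand, starting 31 and 32 bases before the start, and each held a MEF2 box that begins 182 and 211 bases before it. None of these motifs was in the window of Myh2, and no conclusion about a factor follows from a match or its absence. Promoters were listed for 27 of the 33 genes, 22 of them with a single start. Of these 22, 12 held CAGCTG, against 13.0% of all 32851 listed promoters. CACCTG was in 7 of the 22, against 17.2% of all, TATAAA in 5, against 12.4%, the MEF2 box in 4, against 2.92%, and the CArG box in 2 (Acta1 and Myh4), against 1.47%.

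Calcium handling genes were high in the same libraries. Atp2a1, the calcium pump of the fast sarcoplasmic reticulum, was at 5.89, 0.71 and 0.43 TPM in BAT, 25.2, 0.26 and 132 TPM in RWAT, 0.16, 0.15 and 0.26 TPM in IWAT and 0.20, 0.14 and 0.13 TPM in EWAT. Pvalb, a calcium buffer of fast fibres, was at 4.30, 0.15 and 0.17 TPM in BAT, 39.9, 0.77 and 125 TPM in RWAT, 0.12, 0.08 and 0.71 TPM in IWAT and 0, 0.16 and 0.23 TPM in EWAT. Ryr1, the calcium release channel, was at 0.58, 0.25 and 0.16 TPM in BAT, 2.55, 0.45 and 15 TPM in RWAT, 0.24, 0.38 and 0.40 TPM in IWAT and 0.17, 0.13 and 0.22 TPM in EWAT. The order RWAT 3, RWAT 1, BAT 1 held for all 3 genes. Casq1, the calcium store protein, ranged from 0.53 to 1.02 TPM in BAT, 0.94 to 24.96 TPM in RWAT, 0.26 to 1.48 TPM in IWAT and 0.19 to 1.02 TPM in EWAT. Cacna1s, the voltage sensor, was at 0.05 to 0.31 TPM in BAT, 0.12 to 7.82 TPM in RWAT and at most 0.01 TPM in IWAT and EWAT, where it had 1 count per depot.

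Ttn, the giant spring of the sarcomere, was at 4.02, 1.22 and 0.15 TPM in BAT, 8.14, 1.89 and 72.1 TPM in RWAT, 0.40, 0.35 and 0.05 TPM in IWAT and 0.31, 0.07 and 0.07 TPM in EWAT. Because the transcript is so long, these levels rest on 113 to 2857 reads in BAT, 807 to 31406 reads in RWAT, 66 to 144 reads in IWAT and 58 to 110 reads in EWAT. All 3 RWAT libraries were above all EWAT and IWAT libraries. Neb, the thin filament ruler, also kept its RWAT libraries above the others of white fat in TPM. It ranged from 1.18 to 36.9 TPM in RWAT, against 0.39 to 0.99 TPM in IWAT and 0.41 to 0.73 TPM in EWAT. In CPM, however, Neb overlapped between RWAT and IWAT. Actn3, the fast Z-disc alpha-actinin, spanned 0.16 to 0.92 TPM in BAT, 0.67 to 75.3 TPM in RWAT, 0.06 to 0.15 TPM in IWAT and 0.16 to 0.70 TPM in EWAT, so that RWAT overlapped EWAT. For Actn2, the other muscle alpha-actinin, the highest levels were 6.64 TPM in RWAT 3 and 1.11 TPM in BAT 1. Myoz1 reached 37.2 TPM and Tcap 18.1 TPM in RWAT 3, both Z-disc proteins. Actn2 and Tcap in RWAT 2 (0.39 and 0.08 TPM) lay within the range of the IWAT libraries.

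Among the enzymes, muscle enolase, Eno3, had the highest floor. It was at 10.7, 4.76 and 5.57 TPM in BAT, 31.6, 6.73 and 119 TPM in RWAT, 2.60, 8.75 and 6.97 TPM in IWAT and 6.34, 3.43 and 8.82 TPM in EWAT. Only RWAT 3, RWAT 1 and BAT 1 exceeded 10 TPM. Pgam2, muscle phosphoglycerate mutase, reached 34.5 TPM and Pygm, muscle glycogen phosphorylase, 47.6 TPM in RWAT 3, against 0.56 to 1.93 TPM and 0.37 to 0.89 TPM in IWAT. Ckmt2, the mitochondrial creatine kinase of striated muscle, was at 0.76, 0.14 and 0.04 TPM in BAT, 1.57, 0.05 and 10.3 TPM in RWAT, 0.04, 0.05 and 0 TPM in IWAT and 0.05, 0 and 0 TPM in EWAT. Myoglobin, Mb, which stores oxygen in oxidative fibres, was at 12, 1.39 and 0.21 TPM in BAT, 1.27, 0 and 28.9 TPM in RWAT, 0.24, 0.57 and 0.40 TPM in IWAT and 0, 0 and 0.24 TPM in EWAT. Unlike Ckm, Mb in BAT 1 was 9.47 times, and in RWAT 3 22.7 times, its level in RWAT 1.

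Between the 3 libraries with most muscle transcripts the members differed in proportion. Over 32 genes with a value in RWAT 1, RWAT 3 was a median of 4.19 times RWAT 1, with 29 of 32 higher in RWAT 3. The 14 fast genes had a median ratio of 3.99, and 5 slow genes one of 0.350. The largest ratios were those of Mb (22.7), Myh2 (17.2) and Myh1 (13.7), whereas Myh4 had 3.54, Ckm 4.26 and Mylpf 3.95. BAT 1 was a median of 0.230 times RWAT 1, and 5 of the 32 genes were higher in BAT 1 than in RWAT 1: Myh2 (9.54 times), Mb (9.47), Myl2 (8.44), Myh1 (1.54) and Actn2 (1.11). At the other end stood Actn3 (0.0493), Myh4 (0.0753), Myoz1 (0.0798) and Casq1 (0.0840). These are ratios of single libraries, with no replicate check.

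**Figure D4:**
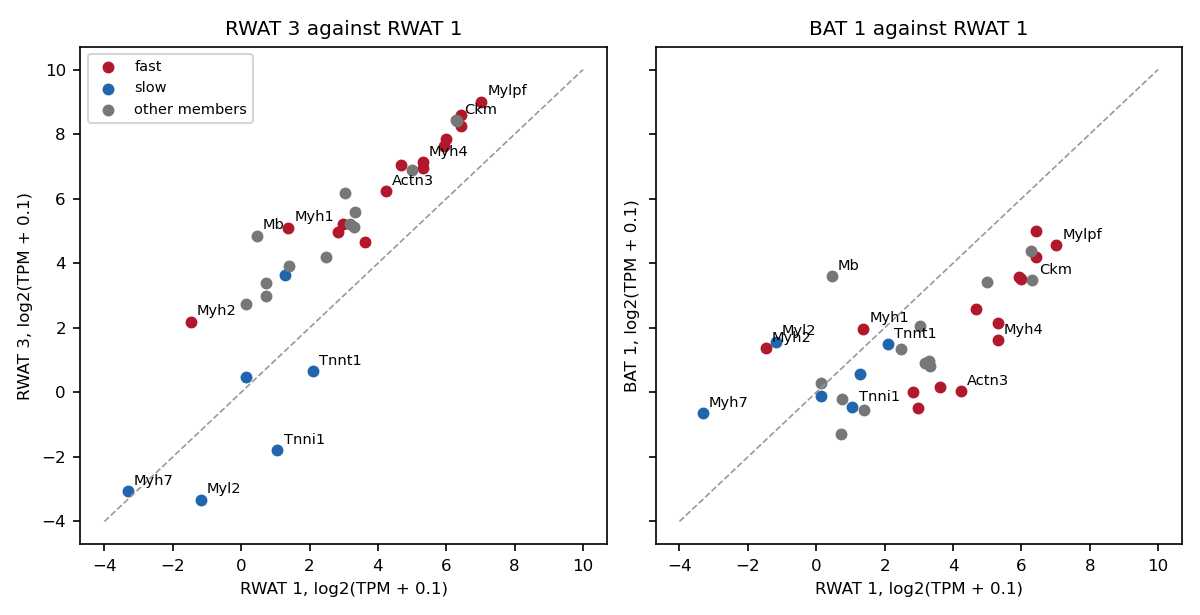
Level of the 33 genes as log2(TPM + 0.1) in RWAT 3 (left) and BAT 1 (right), each against RWAT 1; the dashed line marks equal levels. Most genes lie in 1 band above the line on the left and below it on the right, while Mb, Myh2 and Myh1 lie above the band in both panels.

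Myl1, the alkali light chain of fast fibres, was named in full after its values were seen, because it departed from the other members. It was at 32, 7.75 and 32.1 TPM in BAT, 86.3, 8.72 and 304 TPM in RWAT, 59, 68.6 and 40.1 TPM in IWAT and 0.93, 11.2 and 9.10 TPM in EWAT. IWAT 1 to 3 and BAT 3 thus had Myl1 at 32.1 TPM or more while their Ckm stayed at or under 0.26 TPM, and all 3 IWAT libraries lay above all 3 EWAT libraries. Myl4, the embryonic and atrial alkali light chain, which is not among the 33 genes, had its 2 highest levels in IWAT. Its level was 2.32, 3.41 and 6.75 TPM in BAT, 9.86, 4.33 and 4.05 TPM in RWAT, 21.6, 9.19 and 19.4 TPM in IWAT and 1.93, 1.89 and 1.68 TPM in EWAT, so that RWAT 1 lay just above IWAT 2. Over all genes tested, edgeR called 9.03% between IWAT and EWAT, and 17.3% were higher in IWAT with no overlap in CPM. Beside that, Myl4 was higher in IWAT than in EWAT by a log2 fold change of 2.79 ± 0.63 (SE, edgeR adjusted p = 0.0294, 3 of 3 IWAT libraries above all EWAT libraries). That call was lost without EWAT 1, EWAT 3, IWAT 1 or IWAT 2 (adjusted p = 0.0662 to 0.103) and when a replicate block was added (adjusted p = 0.0600). For Myl1 the same comparison gave 2.46 ± 1.26, with an adjusted p of 0.217. The summed level of 8 adipocyte genes was highest in IWAT 1 to 3 (16579 to 21564 TPM) and in BAT 3 (15485 TPM), the libraries where Myl1 stood out from the other members, against at most 8238 TPM in the rest; its part in the result was not tested.

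**Figure D5:**
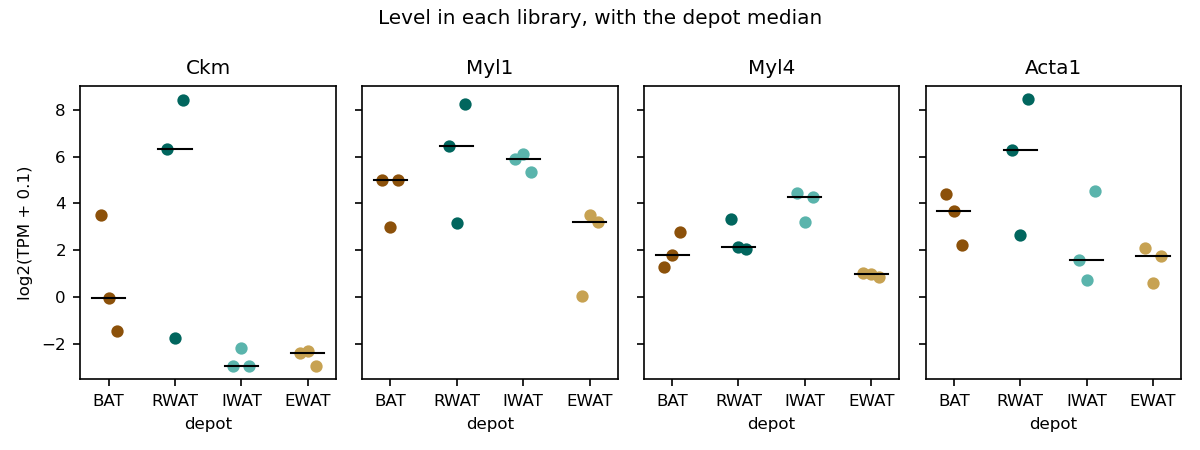
Level of Ckm, Myl1, Myl4 and Acta1 in each library (points, replicates 1 to 3 from left to right) as log2(TPM + 0.1), with the depot median (line). Ckm is at most 0.12 TPM in IWAT, where Myl1 is at 40.1 to 68.6 TPM and Myl4 at 9.19 to 21.6 TPM.

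The depots were compared in 1 edgeR quasi-likelihood model of all 12 libraries, with Benjamini-Hochberg adjustment over 18942 genes tested and a threshold of 0.05. Of the 33 members 30 were tested. Tnni1, Myh7 and Myl2 had too few counts, and a member that passed the filter through its high libraries alone had to differ between libraries, so the counts that follow are descriptions. No member passed the threshold in any of the 7 comparisons by edgeR. Limma-voom also called 0 in each. Members that did not overlap between depots were counted in CPM, where overlap can differ from that in TPM.

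In RWAT against EWAT, edgeR called 0 of 30 members, against 0.00528% of all genes tested, while 28 of 30 had an unadjusted p under 0.05, against 4.52% of all genes. The members' median log2 fold change was 6.69, against -0.01 over all genes tested. Ttn was at 7.61 ± 1.59, with an adjusted p of 0.472 by edgeR, and all 3 RWAT libraries were above all 3 EWAT libraries. Ckm was at 9.86 ± 2.32, with an adjusted p of 0.475 by edgeR, while RWAT 2 and EWAT 2 had 4 counts each, so that the depots overlapped in counts. Mylpf was at 7.16 ± 1.64, Atp2a1 at 8.79 ± 2.04, Acta1 at 5.81 ± 1.49 and Myh4 at 11.16 ± 2.80, whereas the slow Tnnt1 was at 0.73 ± 0.50. In CPM 16 of 30 members did not overlap between the depots, all higher in RWAT, against 3.97% of all genes. In TPM, Actn3, which is among these 16, did overlap (0.67 TPM in RWAT 2, 0.70 TPM in EWAT 1), and Actn2 tied at 0.39 TPM. DESeq2 called 25 of 30 members as higher, against 0.603% of the genes it tested. Without RWAT 1 and RWAT 3, which were singled out by the members' own levels, RWAT is the single library RWAT 2 and its spread is taken from the other depots, so a count of calls carries no information. The fold changes of 6 of 30 members then turned negative: Myl1 (log2 fold change -0.71), Mb (-3.51), Eno3, Mybpc2, Tcap and Tnni2.

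In RWAT against IWAT, edgeR called 0 of 30 members, against 0% of all genes, and 28 of 30 had an unadjusted p under 0.05, against 19.8% of all genes. The median log2 fold change was 5.80. Actn3 was at 9.01 ± 1.70, with an adjusted p of 0.125 by edgeR, and higher in 3 of 3 RWAT libraries. It became the 1 member past the threshold by edgeR when RWAT 2 was left out (adjusted p = 0.0494), and the only 1 called of 19519 genes in that fit. Myl1 was at 1.55 ± 1.20 (adjusted p = 0.501 by edgeR), turned to -0.27 without RWAT 3 and to -3.17 without RWAT 1 and RWAT 3, where 10 of 30 members turned. Of 30 members 11 did not overlap in CPM, all higher in RWAT, against 11% of all genes. Of these, Eno3, Tnnc1 and Tnnt1 overlapped between RWAT and IWAT in TPM. DESeq2 called 25 of 29 members as higher, against 3.73% of the genes it tested.

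BAT was compared with each white depot. Against RWAT, 0 of 30 members were called by edgeR, against 0.0158% of all genes, 21 had an unadjusted p under 0.05, against 4.36%, and all 30 fold changes were negative, with a median of -3.84. Actn3 was at -6.18 ± 1.40 (adjusted p = 0.991 by edgeR) with overlapping libraries. Mb was at -1.02 ± 1.63 and turned to 3.19 without RWAT 3, where Actn2, Myh1 and Myh2 turned as well. Without RWAT 1 and RWAT 3, 27 of the 30 fold changes turned positive, with Mb at 9.62. DESeq2 called 5 members as lower in BAT, against 0.127% of the genes it tested: Actn3, Casq1, Myoz1, Pgam2 and Ryr1. Only Myoz1 did not overlap in CPM between BAT and RWAT, against 4.36% of all genes that were lower in BAT without overlap.

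Against EWAT, edgeR called 0 of 30 members in BAT, against 0.0845% of all genes, and 10 had an unadjusted p under 0.05, against 9.41%. The median log2 fold change was 3.01. Mb was at 6.11 ± 2.32, with an adjusted p of 0.405 by edgeR, and BAT 3 and EWAT 3 had 4 counts each. Without BAT 1, 5 of 30 members turned lower in BAT (Actn3, Eno3, Pvalb, Tnni2 and Tnnt1). Of 30 members, 12 were higher in BAT with no overlap in CPM, against 5.49% of all genes, and Tnnc1 was lower with no overlap, against 5.15%. In TPM, however, Actn2, Ckmt2, Mb and Mybpc1 of these 12 overlapped between BAT and EWAT. So did Tnnc1, with 0.82 TPM in BAT 1 and 0.72 TPM in EWAT 2. DESeq2 called 2 members as higher (Mybpc1 and Myh1), against 1.86% of the genes it tested. Against IWAT, edgeR called 0 of 30, against 0.0264% of all genes, and 4 had an unadjusted p under 0.05, against 12.4%. Here 5 members did not overlap in CPM, all higher in BAT, against 8.37% of all genes, and DESeq2 called 1 (Ckm), against 1.53%. Of these 5, Tnni2 tied at 1.34 TPM between BAT 3 and IWAT 2. Without BAT 1, 7 of 30 members changed sign. Set against the 3 white depots averaged, BAT had 0 of 30 members called by edgeR, against 0.0528% of all genes, with 2 at an unadjusted p under 0.05, against 4.66%, and DESeq2 called 0 members, against 0.952%. Here 16 of 30 changed sign without BAT 1.

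IWAT and EWAT were the depots that differed most over all genes. Between them edgeR called 0 of 30 members, against 9.03% of all genes, and 0 had an unadjusted p under 0.05, against 29.7%. The spread is shared over all 12 libraries, so it includes that between the RWAT and BAT libraries, where the members varied most. For Ckm the log2 fold change was -1.22 ± 3.70. The 0 therefore does not show that the members are alike in these depots. A fit of these 2 depots alone called 2 of 16 tested members, and 4 had an unadjusted p under 0.05. DESeq2 also called 0 members, against 20% of the genes it tested. The median log2 fold change of the members was 0.33. In CPM, 5 of 30 were higher in IWAT with no overlap (Mb, Mybpc1, Myh1, Myl1 and Pygm), against 17.3% of all genes. Another 4 were lower with no overlap in CPM (Actn3, Tnnc1, Tnni2 and Tnnt1), against 15.1%. In TPM, however, Mybpc1, Pygm, Tnnc1 and Tnnt1 overlapped between IWAT and EWAT, and Mb tied at 0.24 TPM. Mb had 4 counts in both IWAT 1 and EWAT 3, and Mybpc1 had 1 count in both IWAT 3 and EWAT 3.

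Other genes of skeletal muscle followed the same libraries. Of 47 further muscle genes, 42 were highest in RWAT 3, and 33 of these were second highest in RWAT 1. The 4 with the highest mean level were less specific. Tpm2, a tropomyosin that smooth muscle also has, was at 48.8, 166 and 16.7 TPM in BAT, 89.1, 128 and 186 TPM in RWAT, 7.10, 27.2 and 41.8 TPM in IWAT and 294, 89.2 and 87.2 TPM in EWAT, and Des, the intermediate filament of all muscle, was likewise highest in EWAT 1 (84.3 TPM), the library with the highest smooth muscle sum. Fabp3, a fatty acid binding protein that brown fat also has, was at 156 TPM in BAT 1 and at most 19.9 TPM elsewhere. Pfkm, muscle phosphofructokinase, was highest in RWAT 3 (33.2 TPM). As with the members, a gene that passed the filter through its high libraries alone had to differ between libraries. The counts that follow are therefore descriptions. Of the 32 tested genes of this list, edgeR called 0 in RWAT against EWAT, against 0.00528% of all genes, and 26 had an unadjusted p under 0.05, against 4.52%. In IWAT against EWAT it called 2 of 32, Des and Tpm2, as lower in IWAT, against 9.03% of all genes, so the share was below that of all genes.

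Markers of muscle stem cells and their fusion were low but not spread evenly. The 10 satellite cell and myogenic genes summed to 1.20, 2.78 and 2.12 TPM in RWAT 1, 2 and 3, against at most 0.10 TPM in BAT, 0.32 TPM in IWAT and 0.26 TPM in EWAT. Pax3, a progenitor factor, was at 0.05, 0.98 and 0.88 TPM in RWAT and at most 0.08 TPM elsewhere, and Myog, which drives differentiation, was at 0.24, 0.52 and 0.35 TPM in RWAT and at most 0.05 TPM elsewhere. RWAT 2, the RWAT library with few fibre transcripts, had the highest of these sums. The levels rest on few reads, with 6, 11 and 7 counts of Myog in RWAT 1, 2 and 3. Pax7, a satellite cell gene named after its values were seen, had 2, 0 and 5 counts in RWAT and 0 elsewhere. Myh3, the embryonic heavy chain, named after its values were seen, was at 2.31, 1.37 and 0 TPM in RWAT and at most 0.07 TPM elsewhere, so it was listed at 0 in RWAT 3, the library with the most adult heavy chain. Mymx and Mymk, which fuse myoblasts, reached 0.49 TPM (RWAT 2, 4 counts) and 0.40 TPM (RWAT 1, 9 counts). Of the other developmental genes, Tnnt2, the cardiac and embryonic troponin T, was at 1.74, 1.33 and 0.11 TPM in RWAT and at most 1.18 TPM elsewhere. Actc1, the cardiac and fetal actin, was at 1.83, 1.97 and 0.71 TPM in RWAT and at most 0.79 TPM elsewhere. Myh8, the perinatal heavy chain, was at 1.31, 0.80 and 0.31 TPM in RWAT and at most 0.71 TPM elsewhere. For these 3 genes RWAT 3 lay within the range of the other depots. Genes of these 2 lists were too low for the test in most cases and no comparison of their sums was tested.

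Genes of the neuromuscular endplate and of denervated muscle gave no common pattern. Their 14 genes summed to 39.3 to 72.6 TPM in BAT, 55.7 to 94.5 TPM in RWAT, 37.6 to 67.6 TPM in IWAT and 37.9 to 147.7 TPM in EWAT, mostly from Runx1, Gadd45a, Hdac4 and Ncam1, which other cells also express. Runx1 and Ncam1 were highest in EWAT 1 (58.5 and 32.8 TPM), Gadd45a in IWAT 3 (23.4 TPM) and Hdac4 in IWAT 2 (18.9 TPM). Trim63, Chrnd and Chrng were named after their values were seen. Trim63, a ubiquitin ligase of wasting muscle, was at 1.73, 0 and 2.91 TPM in RWAT and at most 0.29 TPM elsewhere. The receptor subunits Chrnd and Chrng, of which Chrng marks denervated or fetal fibres, were at most 0.12 and 0.54 TPM in any library. Both were highest in RWAT 1, with 3 and 10 counts. In IWAT against EWAT, edgeR called 2 of 10 tested genes of the list, Ncam1 and Runx1, as lower in IWAT, against 9.03% of all genes.

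Other cell types were set beside the muscle genes. The 8 genes of heart muscle summed to 1.36 to 4.88 TPM over the 12 libraries, mostly Tnni3, and Myh6, a cardiac heavy chain, was at most 0.04 TPM. The smooth muscle sum was 113.6, 501.2 and 80.6 TPM in BAT, 125.9, 487.5 and 102.0 TPM in RWAT, 59.8 to 198.3 TPM in IWAT and 280.9 to 1211 TPM in EWAT, so that the 3 libraries with most skeletal muscle transcripts were not those with most smooth muscle transcripts. The 5 mesothelial genes summed to 1.63, 18.7 and 17.8 TPM in RWAT 1, 2 and 3, against 15.0 to 54.7 TPM in EWAT and at most 1.89 TPM in BAT and IWAT. Of 6 epididymis and testis genes, Lcn5, Lcn8, Adam7 and Tnp1 were listed at 0 in all 12 libraries. In BAT 1 the muscle transcripts stood beside a brown adipocyte sum of 2023 TPM, and in BAT 2 and BAT 3 the sum was 18.3 and 27.9 TPM. Their part in the muscle result was not tested.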

How the data were processed

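Libraries of total RNA had ribosomal RNA removed and were read from 1 end for 75 bp, per the labels' protocols. The submitters' processing notes name Trimmomatic 0.36 for trimming, RSEM 1.3.0 for quantification, GRCm38.p4 as the build and DESeq2 1.10.1 for tests; aligner and annotation release: not given in the sources used here. Per the file headers, the authors deposited RSEM's expected count of each gene in each library, an estimated count of reads. Also deposited were its TPM and, as another value, the posterior SD of the count. TPM is scaled by length and was used to compare levels between genes.

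Expected counts were rounded. filterByExpr (minimum count 10) left 18942 of 47729 genes, and libraries were scaled by TMM factors of 0.846 to 1.14. Depots were compared with edgeR 4.0.16 (quasi-likelihood F test, two-sided, R 4.3.3); DESeq2 1.42.0 and limma-voom 3.58.1 were alternatives. On simulated counts for RWAT against EWAT (18942 genes), edgeR recovered 18% of genes changed 2-fold and 82% of those changed 4-fold, with 7 false calls. The simulated spread was that typical of genes at a like level, and members varied far more between RWAT libraries. The recovery therefore does not carry over to members, of which edgeR called 0 of 30 there at a median log2 fold change of 6.69. Same-numbered libraries deviated together between BAT and RWAT (3 of 3 correlations over 0.1, 0.18 to 0.43). In BAT and IWAT (-0.11 to 0.36) and in IWAT and RWAT (-0.14 to 0.29) 2 of 3 passed 0.1. In EWAT and IWAT 1 did, and in EWAT with BAT or RWAT 0 did. No other depot pair thus had all 3 over 0.1. Total counts were 12933516 to 21106554 per library, with no molecular identifiers described. The members and lists were chosen with earlier results of these data known. Members with a known fibre role and up to 4 of the most abundant genes of each other list were to be named; lists of other cell types are given mainly as sums.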

Additional observations from a re-analysis of the deposited data

How the results depend on the processing

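Each count of members called was recomputed under 23 alternatives: other scalings and filters, DESeq2, limma-voom, a fit of only the depots compared, the replicate number as a block, robust estimation (chosen after seeing the data), and leaving out libraries. Of such counts, 153 stayed at 0 and 8 did not. DESeq2 called 2 members in BAT against EWAT, 1 in BAT against IWAT, 5 in BAT against RWAT, 25 in RWAT against EWAT and 25 in RWAT against IWAT. With no filter on low counts 1 of 33 members, Myh7, was called as higher in BAT than in the white depots averaged. Of 32271 genes in that fit, 73 were called as higher and 6 as lower. With only the depots compared, 2 of 16 tested members were called in IWAT against EWAT, Myh1 as higher and Tnni2 as lower. Of 17723 genes in that fit, 719 were called as higher and 536 as lower. Leaving out 1 library gave 0 to 1 called members in RWAT against IWAT and 0 in the other comparisons. With the replicate block, 0 members were called in each of the 7 comparisons. All 3 correlations of same-numbered libraries passed 0.1 for BAT and RWAT only.

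Among the fold changes printed for single members, the sign turned for Mb in BAT against RWAT (1.22 with limma-voom, 0.63 with the replicate block, -4.10 to 3.19 over the fits without 1 library, 9.62 without RWAT 1 and RWAT 3). It turned for Myl1 in RWAT against EWAT (-0.71) and in RWAT against IWAT (-3.17), and for Mb in RWAT against EWAT (-3.51), without RWAT 1 and RWAT 3, and for Myl1 in RWAT against IWAT without RWAT 3 (-0.27 to 2.12 over the fits without 1 library). The cause was not tested. Without RWAT 1 and RWAT 3, which leaves RWAT as 1 library assumed to vary like the other depots, 27 of 30 members changed sign in BAT against RWAT, 10 in RWAT against IWAT and 6 in RWAT against EWAT. Between IWAT and EWAT, leaving out 1 library of either depot turned 2 to 5 members. The ratio of fast to slow sums was 2.15 to 146.7 over the libraries from TPM and 2.93 to 91.1 from expected counts. Without Mybpc1 and Tnnc1 it reached 1329 in RWAT 3, and the choice to leave out Myl1 was made after seeing the data. For genes with few reads, such as Cacna1s or Ckm in IWAT, depth limits what a fold change can show.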
